A study of Mus musculus with 3 samples.

Results

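The neurotrophins and their receptors were followed in cultured mouse cerebral cells as 7 genes: the ligands Bdnf, Ntf3 and Ntf5, the Trk receptors Ntrk2 and Ntrk3, the p75 receptor gene Ngfr, and Sort1. Every probe to which the array's own annotation gave 1 of these gene names was taken, which came to 14 of 55681 probes and 7 of 22340 genes. Bdnf, Ntf3, Ntf5 and Ngfr had 1 probe each, Ntrk2 and Sort1 had 3 each, and Ntrk3 had 4.

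Cells from the cerebrum of C57BL6/J embryos at embryonic day 18 were cultured and, from day 10 in vitro, treated for 24 h. The cultures received 1 mM valproate with 0.1% DMSO, 100 µM lamotrigine with 0.1% DMSO, or 0.1% DMSO alone, so the solvent was common to all of them. Valproate, used against epilepsy and as a mood stabiliser, also inhibits histone deacetylases, and lamotrigine, another antiepileptic, blocks sodium channels that open with voltage. There was 1 array per treatment, and per its label the lamotrigine array was made for work on antiepileptic drugs and left out of the submitters' study of a histone deacetylase inhibitor. With 1 array each, no difference below has a replicate check, no test was possible, and the precision is limited by the number of arrays. Both drugs were set against the same DMSO array, so a peculiarity of that array would enter both comparisons.

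Neurotrophins are secreted proteins that keep neurons alive and shape dendrites and synapses. Mature forms act through Trk receptor tyrosine kinases: BDNF and NT-4, the product of Ntf5, bind TrkB (Ntrk2), and NT-3 (Ntf3) binds mainly TrkC (Ntrk3). Ntrk2 and Ntrk3 each yield a catalytic form with the kinase and truncated forms without it, and truncated TrkB is the main form of astrocytes. The uncleaved proneurotrophins bind p75 (Ngfr) together with sortilin (Sort1), a sorting receptor.

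For 3 receptor probes the sequence itself shows the part of the receptor it covers, and the form of the other receptor probes was taken from the transcript that the array's annotation gives. The sequences are given as the array files hold them, sense strand, 5′ to 3′, with positions on mm9. The Ntrk2 shared probe lies at chr13:58979563-58979622 (+) and codes for the membrane-spanning segment and the start of the intracellular part, which the catalytic and truncated receptors have in common. The Ntrk3 truncated probe at chr7:85447515-85447574 (-) ends on the stop codon that closes the truncated receptor, set in capitals. The Ntrk3 catalytic probe at chr7:85392044-85392103 (-) lies in the kinase domain, and capitals mark the codons of the activation loop motif.
Ntrk2 shared: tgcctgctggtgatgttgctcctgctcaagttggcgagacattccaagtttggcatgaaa
Ntrk3 truncated: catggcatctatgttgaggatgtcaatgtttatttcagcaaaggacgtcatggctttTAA
Ntrk3 catalytic: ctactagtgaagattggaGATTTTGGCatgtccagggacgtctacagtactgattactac

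Values are scaled signals, in which 100 is the 75th percentile of processed signal on that array. That percentile was 477 with valproate, 387 with lamotrigine and 372 with DMSO, and 52.9%, 51.6% and 49.6% of spots on these arrays were well above background. No spot was saturated (0 on each array). The SD given beside a log2 difference is technical: it comes from 399 probes printed 10 times on each array and covers the spread between spots, not between cultures. On the valproate array a spot's SD on the log2 scale was 0.21 for detected probes under a signal of 25 and 0.05 over 400, with like values on the other arrays, so dim probes are the less precise. The neural markers fitted the cerebral label: 15 of 15 neuronal, 12 of 12 astrocyte and 11 of 12 oligodendrocyte lineage markers were detected on every array. So were 6 of 6 fibroblast and meninges markers, with a summed DMSO signal of 8222 beside 5126 for the oligodendrocyte lineage. Of 8 microglial markers, 5 were detected on every array and 3 (Cx3cr1, P2ry12 and C1qa) on none. In bulk RNA, fewer cells of a type and less RNA per cell cannot be told apart.

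Of the 14 probes, 13 were detected on all arrays, the exception being that of Ntf5. With valproate, of the 6 member genes that both arrays detected, 0 were at least 2-fold apart from DMSO, where 3.52% of all genes were, and 1 of 7 was with detection bounds included, against 4.33% of all genes. With lamotrigine, 0 of 6 were at least 2-fold apart from DMSO, where 0.16% of all genes were, and 0 of 7 with bounds included, against 0.374%. Between valproate and lamotrigine, 0 of 7 were at least 2-fold apart, against 3.75% of all genes, and 2 of 7, Ntrk2 and Ntf5, were at least 1.5-fold apart, against 12% of all genes. The 2 counts above their background thus rest on 1 and 2 genes, and both include Ntf5, the dimmest member. The median of the detected members was 0.06 on the log2 scale with valproate and -0.03 with lamotrigine, beside -0.08 and -0.04 for all genes. Setting the spike-in controls equal in place of the 75th percentile raised the median of all genes by 0.35 for valproate against DMSO, 0.20 for lamotrigine against DMSO and 0.15 between the drugs, so a negative difference smaller than that has no settled sign and is best read relative to the other genes.

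**Figure D1:**
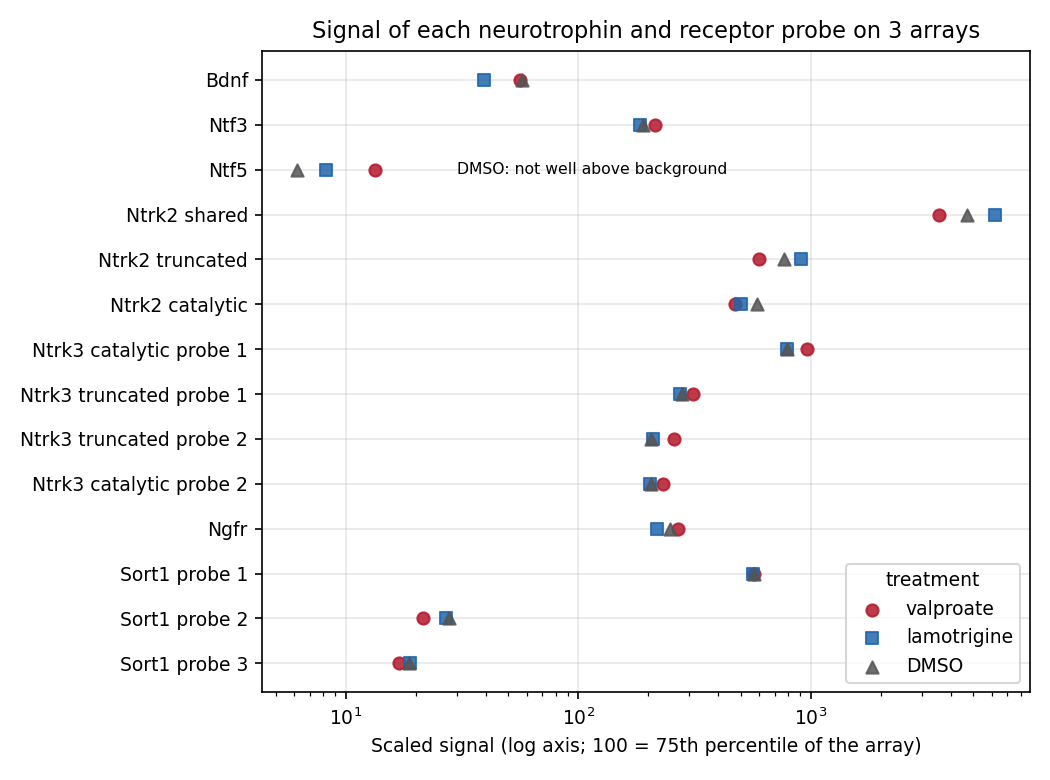
Scaled signal of the 14 neurotrophin and receptor probes (log axis, 100 is the 75th percentile of an array) on the valproate (circle), lamotrigine (square) and DMSO (triangle) arrays, 1 array per treatment. The lamotrigine point of Bdnf lies left of the others, and the valproate, DMSO and lamotrigine points of the shared and truncated Ntrk2 probes follow each other left to right.

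**Figure D2:**
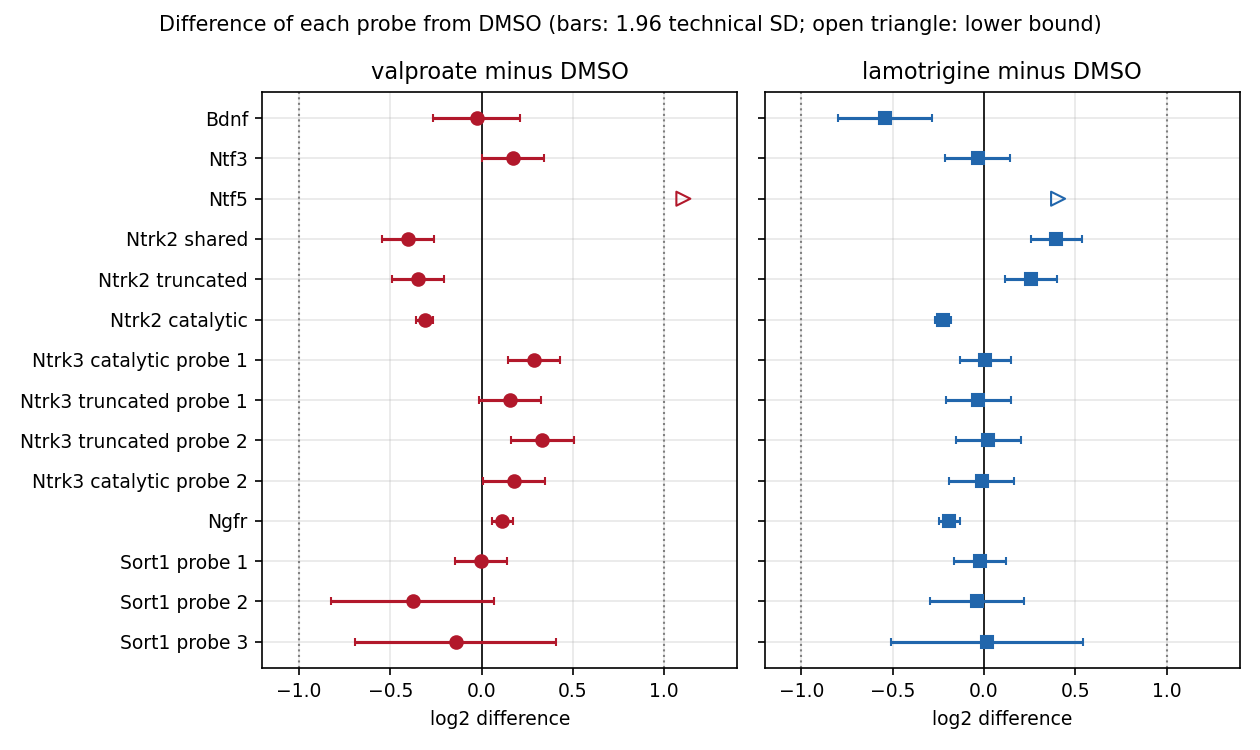
Log2 difference of each probe from DMSO with valproate (left) and lamotrigine (right), with bars of 1.96 technical SD and open triangles for lower bounds, under scaling to the 75th percentile. With valproate the Ntrk2 probes lie below 0 and the Ntrk3 probes above it, and under spike-in scaling the catalytic Ntrk2 probe turns to 0.04; with lamotrigine Bdnf is the lowest, at -0.54.

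Bdnf, the ligand of TrkB whose release and transcription follow neuronal activity, was lower with lamotrigine and close to DMSO with valproate. Its probe, at chr2:109566961-109567020 (+), had a signal of 56.2 with valproate, 39.3 with lamotrigine and 57.3 with DMSO. The valproate and DMSO arrays were alike and the lamotrigine array was low. The log2 difference of lamotrigine from DMSO was -0.54 (1.46-fold lower, technical SD 0.13), and it ranged between -0.56 and -0.34 over the other ways of processing. Among all genes detected on both of these arrays, 0.955% were as low or lower with lamotrigine and 2.41% lay as far from 0 in either direction. These shares are over genes of all signals, not dim ones alone. The Bdnf probe was printed once on each array, so each of its values rests on a single spot. The difference of valproate from DMSO was -0.03 (technical SD 0.12) and turned to 0.32 under spike-in scaling. Relative to the median of all genes it was 0.05, which spike-in scaling cannot change, as it shifts all probes of an array alike. Between valproate and lamotrigine the difference was 0.52 (technical SD 0.12). The array's annotation gave the name Bdnf to this 1 probe, so the Bdnf transcripts that start at different promoters were not told apart.

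Ntf3, the TrkC ligand, at chr6:126051431-126051490 (-), had a signal of 214 with valproate, 185 with lamotrigine and 190 with DMSO. The valproate array was the high one, with a log2 difference from DMSO of 0.17, and lamotrigine lay at -0.04, which turned to 0.17 under spike-in scaling (technical SD 0.09 for both). Ntf5, which encodes NT-4, the other TrkB ligand, was the dimmest member. Its probe at chr7:52671758-52671817 (+) had a signal of 13.3 with valproate, 8.20 with lamotrigine and 6.19 with DMSO, and on the DMSO array it was not well above background. Against DMSO, Ntf5 was therefore at least 2.15-fold higher with valproate and at least 1.32-fold higher with lamotrigine, taking the DMSO probe at its own signal, which lay above the lowest detected signal of 5.30. The bound was the sole member value past 2-fold, and after normexp background correction it shrank to 0.18 on the log2 scale, and the lamotrigine bound to 0.00. Between the drugs, where both arrays detected it, the log2 difference was 0.70 (technical SD 0.28), and it was 0.20 after normexp, where Ntf5 was no longer 1.5-fold apart.

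Ntrk2 differed between the drugs by -0.80 on the log2 scale on its shared probe. With lamotrigine the difference from DMSO varied between the probes of its transcript forms. The shared probe, whose sequence is printed above, had a signal of 3551 with valproate, 6180 with lamotrigine and 4698 with DMSO. The truncated-form probe, at chr13:59038046-59038105 (+), 58.5 kb downstream, had a signal of 599 with valproate, 911 with lamotrigine and 763 with DMSO. On both probes the lamotrigine array was highest and the valproate array lowest. The catalytic-form probe, at chr13:59230936-59230995 (+), 251 kb downstream of the shared one, had a signal of 471 with valproate, 500.3 with lamotrigine and 585 with DMSO, so there both drug arrays were below DMSO.

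With valproate the Ntrk2 probes differed from DMSO by about the same amount. The log2 differences were -0.40 for the shared probe, -0.35 for the truncated form (technical SD 0.07 each) and -0.31 for the catalytic form (technical SD 0.02). Among all genes, 12.9% were as low or lower than the shared probe with valproate. Under spike-in scaling these differences came to -0.06, -0.00 and 0.04. Relative to the median of all genes they were -0.32, -0.27 and -0.23, which spike-in scaling leaves unchanged by construction. The truncated form differed from the catalytic form by -0.04 in its response (technical SD 0.08), a gap within the spot spread.

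With lamotrigine the probes of the forms parted. The log2 difference from DMSO was 0.40 for the shared probe and 0.26 for the truncated form (technical SD 0.07 each), but -0.23 for the catalytic form (technical SD 0.02). Over the other ways of processing, these ranged between 0.39 and 0.60, between 0.25 and 0.46, and between -0.23 and -0.02. Among all genes, 3.49% were as high or higher than the shared probe with lamotrigine. The response of the truncated form was 0.48 above that of the catalytic form (technical SD 0.08). This gap was 0.46 after normexp, and 0.50 after quantile normalization and in the deposited table, which is also quantile-normalized. The remaining settings could hardly move it, as they shift all probes of an array alike or change only detection or outlier filters. For the shared probe the gap to the catalytic form was 0.62 (0.66 after normexp, 0.70 after quantile normalization). Between the shared and truncated probes it was 0.14 (technical SD 0.10), and 0.20 after normexp and after quantile normalization. The shared probe, which covers both forms, thus lay above the probe of each form. The split is therefore one between probes, and its reading as a split between forms was not tested. The shared and truncated probes were printed once on each array, so each of these values rests on single spots.

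The catalytic Ntrk2 probe was printed 10 times. Its spots had a lowest, median and highest signal of 444, 471 and 490 on the valproate array. On the lamotrigine array they had 453, 504 and 520. On the DMSO array they had 564, 588 and 607. No spot of either drug array reached the lowest DMSO spot, whereas the spots of the drug arrays overlapped each other. Under spike-in scaling the valproate difference turned to 0.04 and the lamotrigine difference came to -0.02, so the direction against DMSO holds relative to the other genes only.

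**Figure D3:**
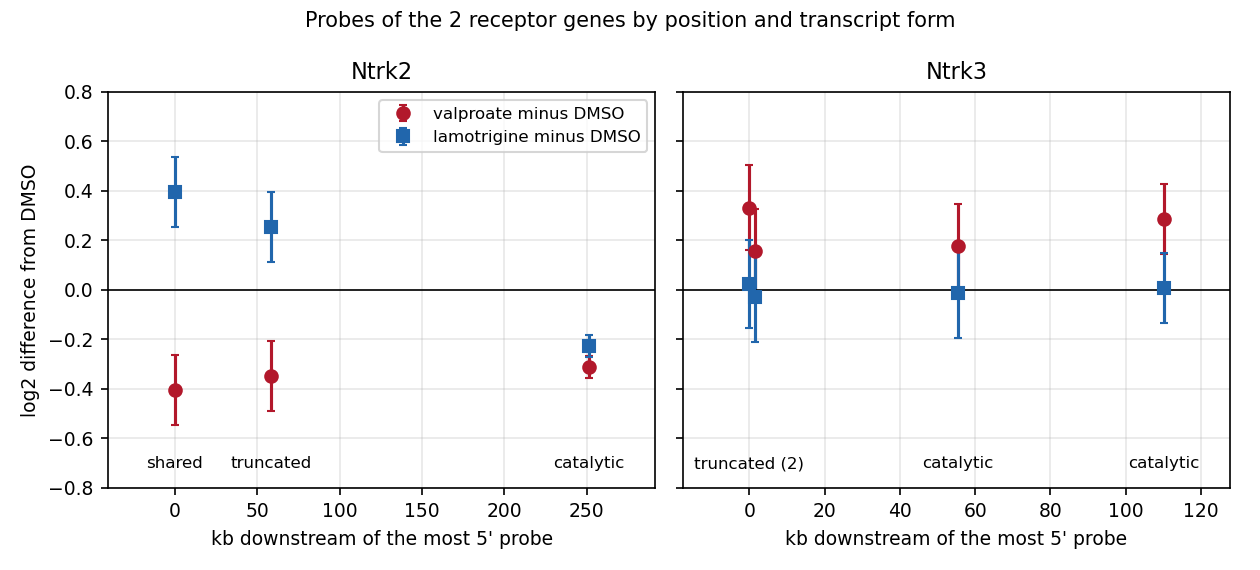
Log2 difference from DMSO of the Ntrk2 (left) and Ntrk3 (right) probes with valproate (circles) and lamotrigine (squares) against the distance in kb from the most 5′ probe of the gene, with bars of 1.96 technical SD. With lamotrigine the shared and truncated Ntrk2 probes lie at 0.40 and 0.26 and the catalytic probe at -0.23 (-0.02 under spike-in scaling), while the Ntrk3 forms lie together.

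Directly between the drugs, valproate minus lamotrigine, the log2 difference was -0.80 for the shared Ntrk2 probe (1.74-fold lower with valproate), -0.61 for the truncated form and -0.09 for the catalytic form, which turned to 0.06 under spike-in scaling. Among all genes, 2.92% were as low or lower than the shared probe in this comparison.

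Astrocytes are a main source of truncated TrkB, and most of their markers were, like Ntrk2, lower on the valproate array. Of 12 astrocyte markers, 11 were below DMSO with valproate, with a median of -0.52 and a summed signal of 24441 with valproate, 44948 with lamotrigine and 46174 with DMSO, and 10 of 12 were below DMSO under spike-in scaling. The lowest were Aqp4, the astrocyte water channel (-1.62), Aldoc (-1.37), Slc1a2, a glutamate transporter (-0.80) and Glul, glutamine synthetase (-0.76), whereas Gfap lay at 0.06. With lamotrigine, 5 of the 12 were above DMSO and 7 below, with a median of -0.02, and the farthest were S100b (-0.37) and the connexin gene Gja1 (0.34). Of 15 neuronal markers, 12 were below DMSO with valproate (median -0.30) and 13 with lamotrigine (median -0.18), and under spike-in scaling 7 and 6 were. Their summed signal was 38240 with valproate, 45352 with lamotrigine and 51041 with DMSO. The part of either cell type in the Ntrk2 values was not tested.

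The genes whose differences were most like those of the shared Ntrk2 probe, by distance in the plane of the 2 drug differences over 14247 genes on 3 arrays, were Nek11 (-0.39 with valproate, 0.40 with lamotrigine), the claudin gene Cldn2 (-0.40 and 0.41) and Emp1 (-0.42 and 0.41). There were 31 genes within 0.1 of it in that plane.

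Ntrk3, the TrkC receptor gene, had a slightly higher signal with valproate than with DMSO on all of its probes, beyond 1.96 technical SD on 3 of 4, and with lamotrigine 0 of 4 lay beyond it. Differences of this size were common: depending on the probe, between 31.2% and 62.8% of all genes lay at least as far from 0 with valproate. The truncated probe printed above had a signal of 258 with valproate, 209 with lamotrigine and 205 with DMSO. The other truncated probe, at chr7:85445908-85445967 (-), had 310.2 with valproate, 273 with lamotrigine and 278 with DMSO. On both, the valproate array was the high one. The catalytic probe printed above had a signal of 231 with valproate, 203 with lamotrigine and 205 with DMSO. The second catalytic probe, at chr7:85337455-85337514 (-), had 962 with valproate, 792 with lamotrigine and 788 with DMSO. Here too the lamotrigine and DMSO arrays were alike. In the same order, the log2 differences of valproate from DMSO were 0.33, 0.16, 0.18 and 0.29 (technical SD between 0.07 and 0.09), and those of lamotrigine were 0.02, -0.03, -0.01 and 0.01, which spike-in scaling brought to between 0.17 and 0.22. The truncated and catalytic probes differed in their valproate response by between -0.13 and 0.16 (technical SD between 0.11 and 0.12). In their lamotrigine response they differed by between -0.04 and 0.04 (technical SD between 0.12 and 0.13). The Ntrk3 probes thus did not part by form with lamotrigine, as those of Ntrk2 did.

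Ngfr, the p75 receptor gene, differed between the drugs by an amount common among genes. Of all genes, 32.3% lay at least as far from 0 between the drugs, and 31.5% did so with lamotrigine against DMSO. Its probe, at chr11:95430211-95430270 (-), was printed 10 times, and 1 outlier spot on the valproate array was left out. The lowest, median and highest spots were 261, 267 and 279 with valproate. They were 205, 217 and 228 with lamotrigine. With DMSO they were 234, 248 and 264. The lamotrigine spots lay below every DMSO spot, while the valproate spots were high and overlapped the top of the DMSO spots. The log2 difference was 0.11 for valproate and -0.19 for lamotrigine against DMSO, which turned to 0.01 under spike-in scaling, and 0.30 between valproate and lamotrigine (technical SD 0.03 each).

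**Figure D4:**
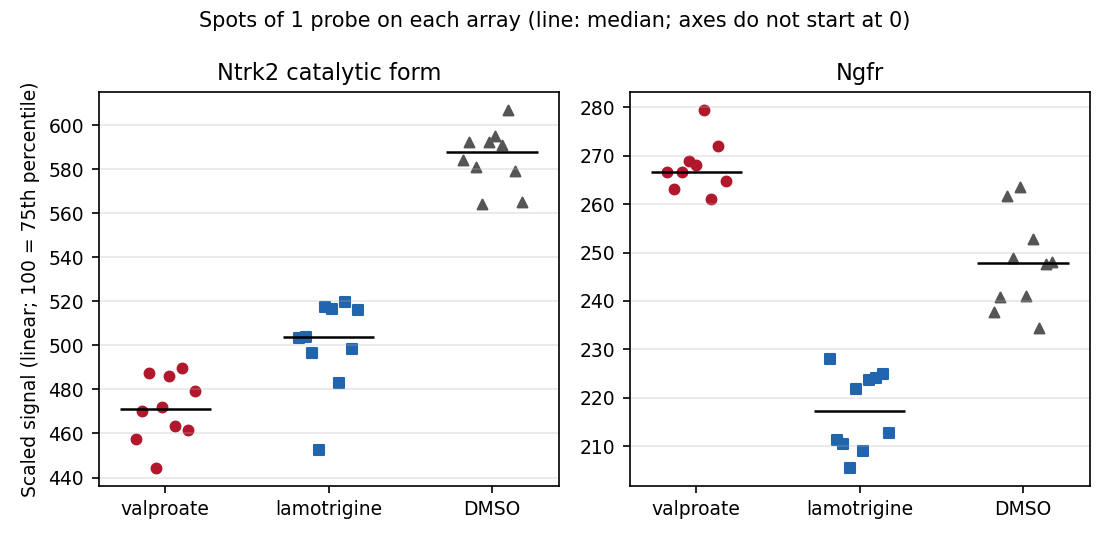
Scaled signal (linear axes that do not start at 0) of the single spots of the catalytic Ntrk2 probe (left) and the Ngfr probe (right) on the valproate, lamotrigine and DMSO arrays, with the median as a line; the spots of an array are technical repeats of 1 sample. Both drug arrays lie below DMSO for catalytic Ntrk2 (medians 471, 504 and 588), where spike-in scaling turns the valproate difference to 0.04, and lamotrigine is lowest for Ngfr (medians 267, 217 and 248), where spike-in scaling turns the lamotrigine difference to 0.01.

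Sort1, which encodes sortilin, the co-receptor of p75 for proneurotrophins and a carrier of BDNF to the regulated secretory pathway, was nearly level. This probe, at chr3:108164349-108164408 (+), had a signal of 570.5 with valproate, 563 with lamotrigine and 572 with DMSO, and the arrays were alike to within 0.02 on the log2 scale (technical SD 0.07). Under spike-in scaling its differences from DMSO came to 0.35 with valproate and 0.18 with lamotrigine. The probe at chr3:108158404-108158463 (+), which the annotation places on another Sort1 transcript, had 21.4 with valproate, 27.1 with lamotrigine and 27.8 with DMSO. The last probe, which spans an exon junction within chr3:108157150-108159198 (+), had 16.9 with valproate, 18.9 with lamotrigine and 18.7 with DMSO. On both dim probes the valproate array was the low one, at -0.38 and -0.14 against DMSO, with technical SDs of 0.23 and 0.28 that reach across 0 at 1.96 SD. Under spike-in scaling these 2 differences came to -0.03 and 0.21.

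The other ligands and receptors of the family also stayed within 2-fold of DMSO where both arrays detected them. Past 2-fold lay 3.52% of all genes with valproate and 0.16% with lamotrigine, shares too small to set so short a list apart. Of 10 such ligands and receptors, 8 were detected on both arrays of each comparison with DMSO, with a median of -0.03 for valproate and -0.02 for lamotrigine. The farthest with valproate were Rtn4r, the Nogo receptor that pairs with p75 (-0.53), Nradd, a p75-like death domain protein (-0.52), the sortilin relative Sorcs1 (0.33) and Tnfrsf19, a p75-related receptor that also pairs with the Nogo receptor (0.25). With lamotrigine they were Sorcs3, another sortilin relative (-0.36) and Nradd (-0.29).

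Among genes that cleave, pack or carry neurotrophins, 14 of 18 were detected on both arrays of each comparison. With either drug 0 of the 14 were 2-fold apart from DMSO, beside 3.52% of all genes with valproate and 0.16% with lamotrigine. The proteases Plg, Mmp3, Mmp7 and Mmp9 were detected on no array. With valproate, Cadps2, a factor of dense-core vesicle release that promotes BDNF secretion, lay at 0.80 (83.8 with valproate, 49.0 with lamotrigine, 48.3 with DMSO). Pcsk6 (0.42), Pcsk1 (0.41) and Hap1, a huntingtin partner in vesicle transport (0.34), followed. Pcsk1, a prohormone convertase of secretory granules, had a signal of 27.1 with valproate, 12.3 with lamotrigine and 20.4 with DMSO, so it lay at -0.73 with lamotrigine and at 1.14 between the drugs. Plat, the tissue plasminogen activator, lay at 0.36 with lamotrigine. The median of the group was 0.06 with valproate and 0.02 with lamotrigine.

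Downstream of Trk receptors, 34 of 36 adaptor and kinase genes were detected on both arrays of each comparison. With either drug 0 of the 34 were 2-fold apart from DMSO, beside 3.52% of all genes with valproate and 0.16% with lamotrigine. With valproate 22 were below DMSO and 12 above (median -0.11), where 60.6% of all genes were below it, and under spike-in scaling 3 were below. The farthest were Pik3r1, a regulatory subunit of PI3 kinase (-0.41), the Ras gene Nras (-0.39), the docking protein gene Gab1 (-0.37) and the adaptor gene Shc2 (-0.33). With lamotrigine 17 were above and 17 below (median 0.01), and Pik3cb, a catalytic subunit of PI3 kinase, lay at 0.29.

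Of 20 genes that act downstream of p75, 19 were detected and Ripk2 was on no array. With either drug 0 of the 19 were 2-fold apart from DMSO, beside 3.52% of all genes with valproate and 0.16% with lamotrigine. The median was -0.01 with valproate and -0.14 with lamotrigine, where 15 of 19 were below DMSO and 59.9% of all genes were, and 2 of 19 under spike-in scaling. With valproate the farthest were Rela, the p65 subunit of NF-kappaB (-0.63), Bex1, which binds p75 (0.42), the zinc finger gene Zfp110 (0.42) and Maged1, a p75 partner (-0.40). With lamotrigine they were Nfkb1 (0.52, at a signal of 22.4 with lamotrigine and 15.6 with DMSO) and the kinase gene Mapk9 (-0.25).

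All 25 genes known to control Bdnf transcription were detected. With valproate 17 were below DMSO and 8 above (median -0.11), where 60.6% of all genes were below, and under spike-in scaling 5 were below. Npas4, an activity-induced transcription factor that acts on Bdnf promoters, was the one past 2-fold, where 1.42% of all genes were at least 2-fold lower, with a signal of 32.3 with valproate, 42.8 with lamotrigine and 68.9 with DMSO. Both drug arrays were low, at -1.10 with valproate and -0.69 with lamotrigine. Spike-in scaling, which raised all differences of valproate from DMSO by 0.35, brought Npas4 within 2-fold. The others farthest from DMSO with valproate were Nfatc4 (0.79), the repressor gene Rest (0.62) and Bhlhe40 (-0.60). With lamotrigine Creb1, which encodes the CREB factor that binds Bdnf promoters, lay at -0.37, and the median of the list was -0.03. Bdnf itself lay at -0.54 with lamotrigine and at -0.03 with valproate, the latter turning to 0.32 under spike-in scaling. Any link between Bdnf and Npas4, or another gene of this list, was not tested.

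Genes known to be induced through TrkB or by activity were mostly lower with lamotrigine and mixed with valproate. The list was chosen with earlier results of these data known, so its counts are a description and no test. Of 26, 22 were detected on both arrays of each comparison, and Egr3 and Ptgs2 were on none. With lamotrigine 18 of 22 were below DMSO (median -0.23), beside 59.9% of all genes, and 2 were at least 2-fold lower, beside 0.0628%. Relative to the median of all genes 18 were lower, a count that spike-in scaling leaves unchanged by construction. Below 0 under spike-in scaling were 12 of 22. With valproate 13 were above and 9 below DMSO (median 0.06, and -0.01 after normexp). Past 2-fold there was 1 higher gene, Nptx2, and 1 lower gene, beside 2.11% and 1.42% of all genes. The lower gene was Npas4 at -1.10 (within 2-fold under spike-in scaling). It was already counted among the genes that control Bdnf transcription, so it is not a separate result.

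Cort, which encodes the neuropeptide cortistatin, had a signal of 261 with valproate, 97.7 with lamotrigine and 416 with DMSO. Its log2 difference from DMSO was -0.68 with valproate and -2.09 with lamotrigine. Vgf, a granule peptide precursor induced by BDNF, had 1765 with valproate, 517 with lamotrigine and 1465 with DMSO. It was thus low on the lamotrigine array alone, at -1.50 with lamotrigine and 0.27 with valproate. Nptx2, a secreted pentraxin that clusters glutamate receptors, had 42.8 with valproate, 7.94 with lamotrigine and 12.2 with DMSO. It lay at 1.81 with valproate and -0.62 with lamotrigine, the widest gap between the drugs in the list (2.43). Its lamotrigine and DMSO signals were dim, beside lowest detected signals of 4.64 and 5.30, so these differences are imprecise. Egr1, an immediate early transcription factor, had 363 with valproate, 201 with lamotrigine and 225 with DMSO, so the valproate array was the high one (0.69).

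Between valproate and lamotrigine, 3 of 22 genes of this list were at least 2-fold higher with valproate, beside 2.06% of all genes, and 0 were 2-fold lower. The list median was 0.35 (0.18 after normexp), beside -0.03 for all genes. Of the list, Sst and Npy are also markers of inhibitory neurons. Of 11 such markers, 7 were below DMSO with valproate (median -0.13) and 6 with lamotrigine (median -0.07), where 60.6% and 59.9% of all genes were, with a summed signal of 8865 with valproate, 8169 with lamotrigine and 9925 with DMSO, and the part of these cells, or of the neurons described above, in the values of this list and of Bdnf was not tested.

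**Figure D5:**
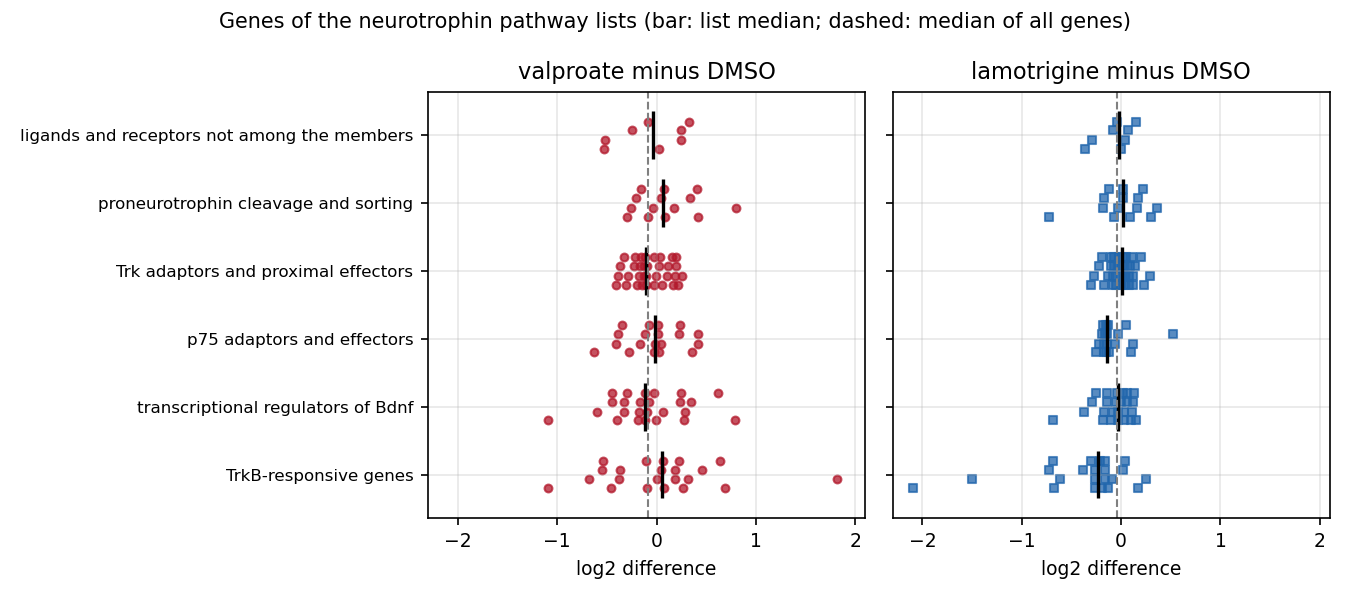
Log2 differences from DMSO of the detected genes of 6 neurotrophin pathway lists with valproate (left) and lamotrigine (right), with the list median as a black bar and the median of all genes as a dashed line. The genes known to be induced through TrkB lie mostly left of the dashed line with lamotrigine (18 of 22 below it, and below 0 for 12 of 22 under spike-in scaling), with Cort at -2.09 and Vgf at -1.50.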

How the data were processed

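Intensity values of the scanner files deposited by the authors were used. Per the labels, TRIzol was used for extraction, and RNA was labelled with Cy3 (Low Input Quick Amp) and hybridised to Agilent arrays; per the file headers, the processed intensity is background-subtracted by Feature Extraction 10.7.1.1 and probes are placed on mm9. Processed signals were divided by each array's 75th percentile (100 in the text), outlier spots were left out, and repeat spots were averaged on the log2 scale. Of 55681 probes, a RefSeq table joined 27325 to a gene by accession, 3523 by current symbol and 551 by an older name. The probe of highest mean level stood for its gene. A probe was detected where most spots were well above background; a difference against an undetected probe is a bound, taken against the higher of that probe's own signal and the array's lowest detected signal (3.90 with valproate, 4.64 with lamotrigine, 5.30 with DMSO).

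Every member probe was named, and of each list up to 4 genes farthest from 0 with valproate and 2 with lamotrigine; some genes that the rule named are not reported here. The 3 genes nearest to the member probe farthest from 0 with valproate, among those detected on every array, were added. The cell type lists follow the same rule, but only astrocyte genes are named here. Gfap was named outside the rule, after its value was seen. The members and lists were chosen with earlier results of these data known. The alternatives were quantile normalization, centring on probes detected on every array, spike-in scaling (6 of 10 probes), normexp with an offset of 50 (limma 3.58.1), the authors' deposited table of quantile-normalized intensity (upstream steps not given in the sources used here), 2 detection filters, outlier spots kept, the mean of detected probes, and thresholds of 1.5-fold and 3-fold. The calculation was tested on simulated data. Python 3.11.15 and R 4.3.3 were used.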

Additional observations from a re-analysis of the deposited data

How the results depend on the processing

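No paired analysis was possible because each treatment had 1 array. Over the alternatives, 333 differences of member probes were recomputed: 298 moved by less than 1.96 technical SD and 35 moved by more, 27 of these under spike-in scaling. The 2 detection filters (42 and 39 differences) and the keeping of outlier spots (42) could hardly move a value, so the 298 overstate the stability. Quantile normalization and the deposited table, also quantile-normalized, each gave 39 that moved by less and 3 by more. The count of all genes at least 2-fold apart was 505 for valproate against DMSO, 23 for lamotrigine against DMSO and 546 between the drugs. In this order of comparisons it became 191, 4 and 221 after normexp background correction, 1961, 1164 and 2037 with no detection filter, 1749, 268 and 1747 at 1.5-fold, and 109, 2 and 118 at 3-fold. Under spike-in scaling it became 819 for valproate and 48 for lamotrigine against DMSO. The split into higher and lower genes was 302 and 203 for valproate, 14 and 9 for lamotrigine and 300 and 246 between the drugs. Spike-in scaling gave 742 and 77, 42 and 6, and 447 and 165. Quantile normalization gave 11 and 15 for lamotrigine. The count of members 2-fold apart from DMSO with valproate became 1 (Ntf5) with no detection filter; with bounds included, it became 0 after normexp, with detection on every array required, and at 3-fold. Between the drugs it became 2 at 1.5-fold, with or without bounds.

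Spike-in scaling moved the medians by construction. For valproate and lamotrigine against DMSO they became 0.40 and 0.17 for the members, 0.32 and 0.18 for the other ligands and receptors, 0.41 and 0.22 for cleavage and sorting genes, 0.24 and 0.21 for Trk adaptors, 0.33 and 0.056 for p75 adaptors, 0.24 and 0.17 for regulators of Bdnf, and 0.41 and -0.033 for TrkB-responsive genes. The amount of spike-in RNA per sample was not given in the sources used here. Signal over background limits Ntf5, the dim Sort1 probes and the dim list genes Nptx2, Pcsk1 and Nfkb1.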
